A study of Mus musculus with 12 samples.

Results

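The genes described here are effectors of synaptic activity, which link the firing of a neuron to the strength of its synapses. Their members are Npas4, Arc, Homer1, Homer2, Homer3, Nptx1, Nptx2 and Nptxr, taken as every transcript of the deposited table that carries one of these 8 gene symbols. They hold 57 of the 189364 transcripts that name a gene, in a table of 52169 symbols. Homer1 has 20 of these transcripts, Homer3 has 10, Nptxr has 9, Homer2 has 6, Nptx1 has 5, Arc has 3, and Npas4 and Nptx2 have 2 each. All 57 passed the filter on low counts in every comparison.

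The study treated hemiparkinsonian mice with L-DOPA, the precursor of dopamine, and sequenced RNA of the striatum. Female C57BL/6J mice (their age is not given in the sources used here) received the neurotoxin 6-OHDA at 3 µg/µl in the right medial forebrain bundle, which destroys the dopamine axons of that side, after desipramine at 25 mg/kg to spare noradrenergic neurons. After 2 weeks they were injected with 10 mg/kg L-DOPA and 7.5 mg/kg benserazide, a drug that blocks the conversion of L-DOPA outside the brain, either once (acute) or on each of 9 days (chronic), and killed 1 hour after the last injection. Each treatment gave 3 libraries of the lesioned striatum and 3 of the unlesioned side, 12 in all. Every library thus comes from an operated animal that had received L-DOPA. The unlesioned striatum is the other hemisphere of such animals, and saline-treated mice are not among these samples. The samples were punches of bulk tissue, in which fewer cells of a type and less RNA per cell cannot be told apart.

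In neurons these genes act at different steps. Npas4 is a transcription factor that is made within minutes of calcium entry. Arc is a cytoskeleton-associated protein that promotes the removal of AMPA-type glutamate receptors from the synapse. Homer proteins bind group I metabotropic glutamate receptors and, in their long forms, use a coiled coil to tie them to Shank scaffolds and to inositol trisphosphate receptors; the short form, Homer1a, lacks the coiled coil, is induced by activity and uncouples these ties. Neuronal pentraxins are secreted proteins that cluster AMPA receptors from outside the cell: Nptx2, also called Narp, is an activity-induced gene, Nptx1 is a related secreted pentraxin, and Nptxr is their membrane-bound relative. In the striatum, activity-dependent genes of this kind are known to respond to dopamine through D1 receptors.

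The total of counts ranged from 87695043 to 173116525 over the 12 libraries, and levels are given as CPM, counts per 1000000 counts of effective library size. Each gene is described by its transcript with the most counts, and its other transcripts share reads with it. A gene was called changed where the edgeR quasi-likelihood test gave a Benjamini-Hochberg adjusted p under 0.05 over all transcripts tested. Errors of levels are SDs over n = 3 libraries, and those of log2 fold changes are standard errors. Chronic unlesioned library 2 stood apart in holding 449 CPM of Ttr, a transport protein of the choroid plexus, against at most 1.51 CPM in each other library. Cortical glutamatergic marker genes varied between libraries within every group: Slc17a7, which encodes a glutamate transporter of such neurons, ranged from 1.25 to 32.6 CPM. Neither gene is a member. Markers of the labelled tissue were found in every library: the 6 genes listed for all medium spiny neurons, the main neurons of the striatum, summed to between 1026 and 1626 CPM.

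The first comparison asks how the lesioned and the unlesioned striatum differed 1 hour after a single dose. Both sides had received L-DOPA. A lesion effect, or a change with the lesion, is here this difference between the sides under L-DOPA and not an effect of the lesion alone. Of the 8 genes, Arc, Npas4, Homer1 and Nptx2 rose in the lesioned striatum, and the transcript standing for Nptxr fell. Arc rose most, 9.91-fold, followed by Npas4 at 7.49-fold, the main Homer1 transcript at 2.96-fold and Nptx2 at 1.73-fold. Homer2, Homer3 and Nptx1 did not pass the test. Of all 129674 transcripts tested, 12.9% were called in this comparison, and the median log2 fold change was 0.01, against 0.62 over the 8 genes. After chronic treatment Arc, Homer1, Npas4, Nptx1 and Nptx2 were higher on the lesioned side and none was lower, where 12.0% of all 127063 transcripts were called. The median over the 8 genes was then 2.34, against -0.02 over all transcripts tested.

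Markers of cell types also moved with the lesion. After acute L-DOPA 5 of the 6 markers of all medium spiny neurons were lower (summed 1347 to 1626 CPM in the unlesioned and 1130 to 1238 CPM in the lesioned libraries), all 5 markers of D2 neurons were higher (510 to 601 against 874 to 946 CPM), and of 5 markers of D1 neurons 4 were lower and 1 was higher (174 to 187 against 132 to 144 CPM). The D1 markers parted in direction: Drd1a, the D1 receptor, fell by 2.30 ± 0.10 on the log2 scale and Pdyn, which encodes prodynorphin, by 0.76 ± 0.07, whereas Tac1, which encodes substance P, rose by 0.89 ± 0.07. Of 6 markers each, 2 were higher for astrocytes, 1 for oligodendrocytes, 1 for microglia and none for endothelium. After chronic L-DOPA none of the markers of all medium spiny neurons passed (1325 to 1442 against 1026 to 1379 CPM), 2 of the 5 D2 markers were higher (505 to 541 against 801 to 1065 CPM), and of the D1 markers 2 were higher and 2 lower (170 to 211 against 295 to 344 CPM). Pdyn then rose by 2.50 ± 0.15 and Tac1 by 0.64 ± 0.15, while Drd1a fell by 1.32 ± 0.13. Of the other lists, 1 astrocyte marker and 1 marker of dopamine axons (Th) were higher and 1 of choroid plexus lower after chronic L-DOPA. After acute L-DOPA 1 of choroid plexus was lower. Mean Th was 1.84 CPM in the chronic unlesioned and 9.63 CPM in the chronic lesioned libraries. In the same list Slc6a3 was at 0.0282 and 0.0527 CPM and Slc18a2 at 1.20 and 1.31 CPM. Which cells held the Th RNA was not tested. None of the markers of medium spiny neurons was at 0, and their part in the differences of the 8 genes was not tested.

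**Figure D1:**
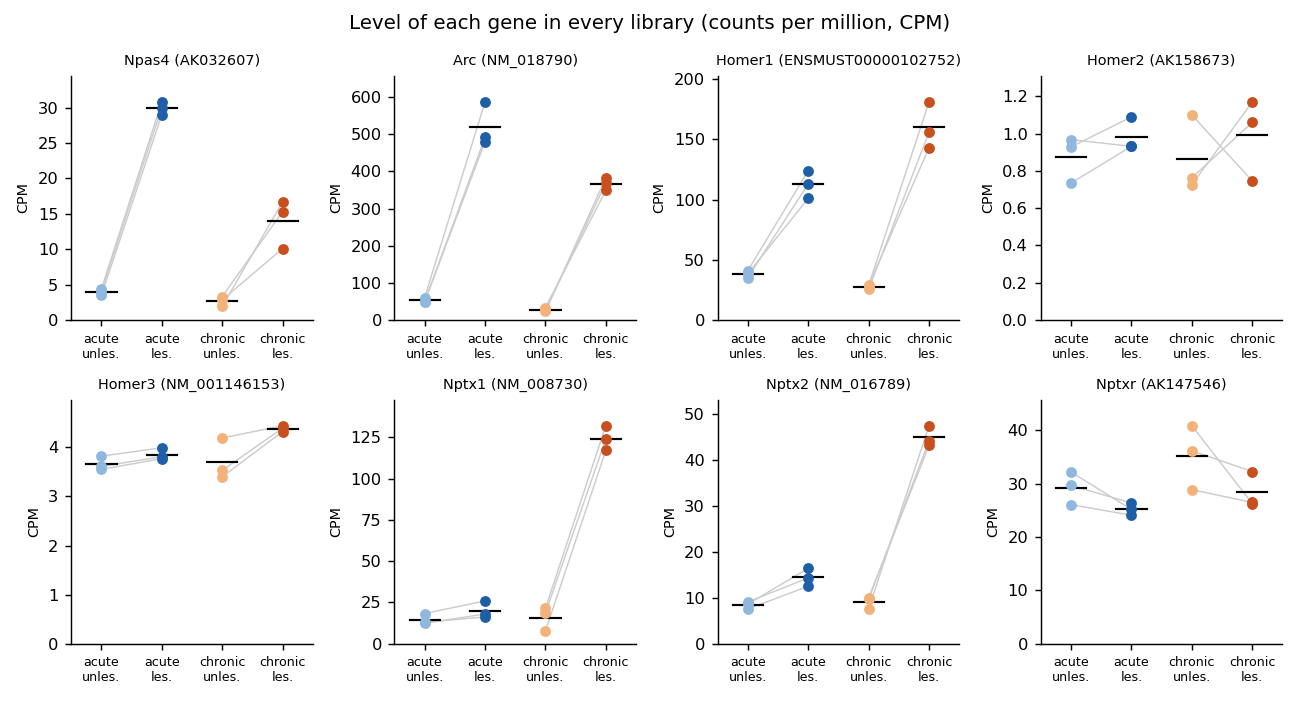
Level of each gene (y axis, CPM from 0) in each of the 12 libraries, by group (x axis). Points are libraries, black bars are group means and grey lines join libraries with the same replicate number. Arc and Npas4 stood highest in the acute lesioned striatum, Homer1, Nptx1 and Nptx2 in the chronic lesioned striatum, and Homer2 overlapped in all groups.

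Npas4, the earliest-acting of these genes, is on chromosome 19 (mm9, chr19:4984355-4989971, minus strand). Its highest-count transcript, AK032607, stood at 4.10, 4.39 and 3.51 CPM in the 3 acute unlesioned libraries and at 30.0, 30.8 and 29.0 CPM in the acute lesioned ones. After chronic treatment it stood at 3.32, 2.85 and 1.92 CPM in the unlesioned and at 15.3, 10.1 and 16.7 CPM in the lesioned libraries. In both treatments every lesioned library lay above every unlesioned one, and every chronic lesioned library lay below every acute lesioned one. The log2 difference of the lesion was 2.90 ± 0.08 after acute L-DOPA (edgeR, Benjamini-Hochberg adjusted p = 5.04e-10) and 2.39 ± 0.22 after chronic L-DOPA (edgeR, adjusted p = 5.24e-05).

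The letters upstream of the Npas4 start are shown because Npas4 rose with the other induced genes and its promoter holds cores of the cAMP response element, the sequence bound by CREB. In RefSeq (GRCm38.p6, a later build than that of the counts) the stretch of 55 bases from position -199 to -145 before the start, chr19:4990116-4990170 on the minus strand, reads as follows, with each match to the core TGACG, on either strand, in capitals.

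Npas4 promoter: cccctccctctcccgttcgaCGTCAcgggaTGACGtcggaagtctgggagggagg

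The 2 cores lie 5 letters apart on opposite strands. Of 32851 promoter windows of the same length (250 bases before to 50 after a start), 20.8% held at least 1 core on either strand and 5.01% held 2 or more. The complete element TGACGTCA, found in 1.79% of windows, was not among the letters of the Npas4 window, nor were AP-1 (TGANTCA, in 7.81%), the E-box CACGTG (in 7.15%) or the CArG box of serum response factor (in 1.63%). The table of promoters used here matched 4 of the 8 genes (Homer1, Homer2, Homer3 and Npas4).

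Arc lies on chromosome 15 (mm9, chr15:74499513-74503000, minus strand) and, in the lesioned striatum, was the most abundant of the 8 per base of transcript. Its transcript NM_018790, which is 3057 bases long with 3 exons, stood at 60.2, 48.9 and 48.5 CPM in the acute unlesioned and at 587, 492 and 480 CPM in the acute lesioned libraries. Chronic treatment gave levels of 25.7, 33.6 and 23.2 CPM in the unlesioned and 369, 349 and 383 CPM in the lesioned libraries. No 2 of the 4 groups overlapped. From lowest to highest they were chronic unlesioned (27.5 ± 5.5 CPM), acute unlesioned (52.6 ± 6.6 CPM), chronic lesioned (367 ± 17 CPM) and acute lesioned (520 ± 59 CPM). The lesioned side was higher by 3.31 ± 0.11 on the log2 scale after acute L-DOPA (edgeR, adjusted p = 1.35e-09) and by 3.74 ± 0.14 after chronic L-DOPA (edgeR, adjusted p = 5.15e-08). All 3 Arc transcripts were called in both. On the deposited normalised expression scale, which divides counts by transcript length, Arc reached 8.14 ± 0.78 in the acute lesioned striatum, where the main Homer1 transcript had 0.936 ± 0.079, Npas4 0.372 ± 0.0095, Nptx2 0.268 ± 0.033 and Nptx1 0.181 ± 0.044.

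Homer1 is on the plus strand of chromosome 13 and makes short and long forms that share their first exons. The short form Homer1a does not splice after the fifth exon but reads on into the intron, and its transcript ENSMUST00000102752 (mm9, chr13:94074450-94130417) has a last exon of 4523 bases. In the annotation of the mouse build NCBIM37, which is mm9, the border between the 140 bases of the fifth exon that long forms use and what follows distinguishes the forms. These borders are shown because the results on Homer1 turn on which form a read can come from. The last 15 bases of the shared exon, chr13:94126020-94126034, are in lower case and the 15 coding bases that follow are in capitals.

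Homer1 short form: gccatttccacatagGTACACATTCAATTC
Homer1 second short form: gccatttccacatagTTCTTCAAGATGGAT
Homer1 long form: gccatttccacatagTTCAGCAATCAGCAA
Homer1 long form with the extra exon: gccatttccacatagTGCTGGGGATCGAAC

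The short form continues with chr13:94126035-94126049, and its reading frame ends within 31 bases of the border. The second short form is spliced to a separate last exon in the same intron (chr13:94136198-94136212). The long form is spliced to chr13:94157479-94157493, and the other long form first takes up an extra exon of 36 bases (chr13:94156300-94156335). Of the 20 Homer1 transcripts in the table, 6 are short forms, which end before chr13:94157479, and 10 are long forms, 2 have a single exon that starts in the last exon of the short form beyond the shared part (AK049142, which lies within it, and AK039878, which runs past its end), and 2 lie only in the 3′ exons of the long forms (AK076543 and AK138140). A read in the shared exons was counted on the short and the long transcripts alike, so that the last 4 tell the forms apart best.

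The short form rose most. ENSMUST00000102752 stood at 41.0, 35.2 and 38.4 CPM in the acute unlesioned and at 124, 113 and 101 CPM in the acute lesioned libraries. After chronic treatment it stood at 25.5, 28.7 and 28.6 CPM in the unlesioned and at 156, 181 and 143 CPM in the lesioned libraries. The 4 groups did not overlap, and their order was chronic unlesioned, acute unlesioned, acute lesioned and chronic lesioned. The log2 difference of the lesion was 1.57 ± 0.08 after acute L-DOPA (edgeR, adjusted p = 1.20e-07) and 2.53 ± 0.11 after chronic L-DOPA (edgeR, adjusted p = 1.39e-07).

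In AK049142 (chr13:94128356-94130412), which holds only the tail of the short form, the levels were 11.2, 9.01 and 9.52 CPM in the acute unlesioned and 41.9, 37.6 and 34.7 CPM in the acute lesioned libraries. After chronic treatment they were 4.72, 6.48 and 5.38 CPM in the unlesioned and 52.0, 61.1 and 47.7 CPM in the lesioned libraries. These groups were also free of overlap. The lesioned striatum was 3.85-fold higher after acute L-DOPA (log2 1.94 ± 0.09; edgeR, adjusted p = 4.36e-08) and 9.70-fold higher after chronic L-DOPA (log2 3.28 ± 0.14; edgeR, adjusted p = 1.25e-07).

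AK138140 (chr13:94173451-94174696), which lies in the last exon of long forms only, went the other way. It stood at 7.54, 6.42 and 7.66 CPM in the acute unlesioned and at 4.48, 5.02 and 4.99 CPM in the acute lesioned libraries. With chronic treatment the levels were 6.08, 5.47 and 6.34 CPM in the unlesioned and 5.25, 4.16 and 4.81 CPM in the lesioned libraries. The lesioned libraries lay below the unlesioned ones in both treatments. The acute difference was -0.58 ± 0.08 on the log2 scale (edgeR, adjusted p = 0.000852). The chronic difference of -0.33 ± 0.11 missed the threshold (edgeR, adjusted p = 0.0730) and passed it with the replicate number as a block (edgeR, adjusted p = 0.0110) and in a fit over all 12 libraries (edgeR, adjusted p = 0.0314). The full-length long transcript NM_147176, which shares the first exons with the short form, rose by 0.28 ± 0.07 (edgeR, adjusted p = 0.0172) after acute and by 0.79 ± 0.08 (edgeR, adjusted p = 0.000105) after chronic L-DOPA. The acute call on NM_147176 was lost without acute unlesioned library 2 (edgeR, adjusted p = 0.0904) or acute lesioned library 2 (edgeR, adjusted p = 0.0602).

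Over all 20 Homer1 transcripts, 12 were called higher and 2 lower on the lesioned side after acute L-DOPA. The 2 called lower were those in the 3′ exons of the long forms. After chronic L-DOPA 18 were called higher and none lower. The 2 rows in the 3′ exons then differed by -0.29 ± 0.10 and -0.33 ± 0.11, with every lesioned library below every unlesioned one. Among the 6 short transcripts the acute log2 fold change ran from 0.98 to 1.57, and among the 10 long ones from -0.04 to 0.71. NM_152134 is a long form with another first exon than the short form, but reads of the later exons that both share also count on it. It did not pass the test after acute L-DOPA (-0.03 ± 0.06; edgeR, adjusted p = 0.787) and rose by 0.40 ± 0.08 after chronic L-DOPA (edgeR, adjusted p = 0.00698).

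**Figure D2:**
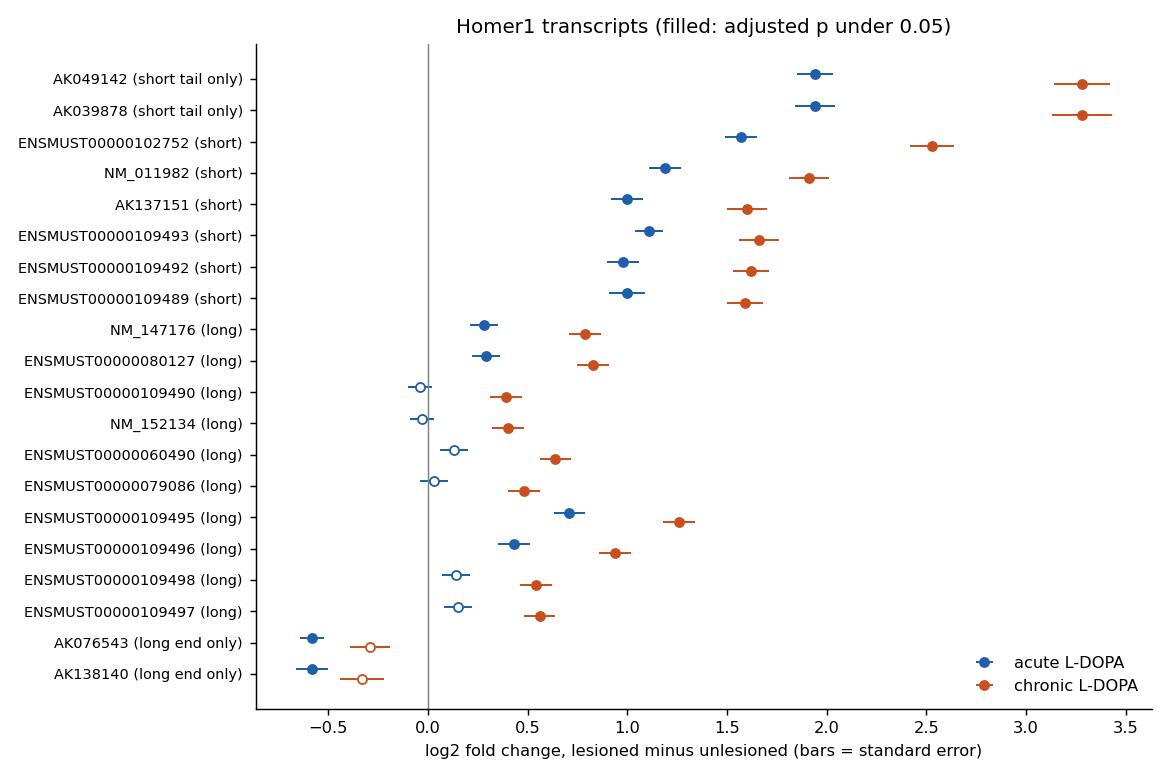
Log2 fold change of the lesion (x axis) for each of the 20 Homer1 transcripts (y axis), after acute (blue) and chronic (orange) L-DOPA. Bars are standard errors and filled points passed an adjusted p under 0.05; the rows in the tail of the short form lie farthest right, at 1.94 and 3.28, and those in the 3′ exons of the long forms lie left of 0.

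The balance of the forms was measured in each library as the log2 ratio of the summed short to the summed long transcripts, each count divided by the length of its transcript. It was -0.77, -0.83 and -0.82 in the acute unlesioned and 0.34, 0.26 and 0.25 in the acute lesioned libraries. After chronic treatment it was -1.06, -0.85 and -0.97 in the unlesioned and 0.33, 0.53 and 0.32 in the lesioned libraries. Every lesioned library was thus above 0 and every unlesioned library below it. The lesioned side was higher by 1.22 on the log2 scale (exact permutation test within treatments, two-sided, p = 0.005, the smallest it can give). That test shuffled the libraries of a treatment freely, without regard to replicate numbers, and so took the sides as independent. Between chronic and acute lesioned libraries the ratio differed by 0.11 (exact permutation test, two-sided, p = 0.30, where the smallest p is 0.10). That difference depended on the transcripts used: it was 0.16 with the short and the long transcript of highest mean count and 0.52 with AK049142 over AK138140, which were both without overlap and at the smallest p (exact permutation test, two-sided, p = 0.10). With AK049142 over AK138140 alone, which share no exon, the ratio rose from -0.26 ± 0.13 to 2.25 ± 0.22 with the lesion after acute and from -0.84 ± 0.32 to 2.77 ± 0.33 after chronic L-DOPA. The lesion difference of that ratio was 3.07 (same exact permutation test against no difference between the sides, two-sided, p = 0.005). It was not tested against the 1.22 of the summed forms. This pair was added after seeing the data, and its rows were called in opposite directions after acute L-DOPA. Its p is therefore no separate support.

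**Figure D3:**
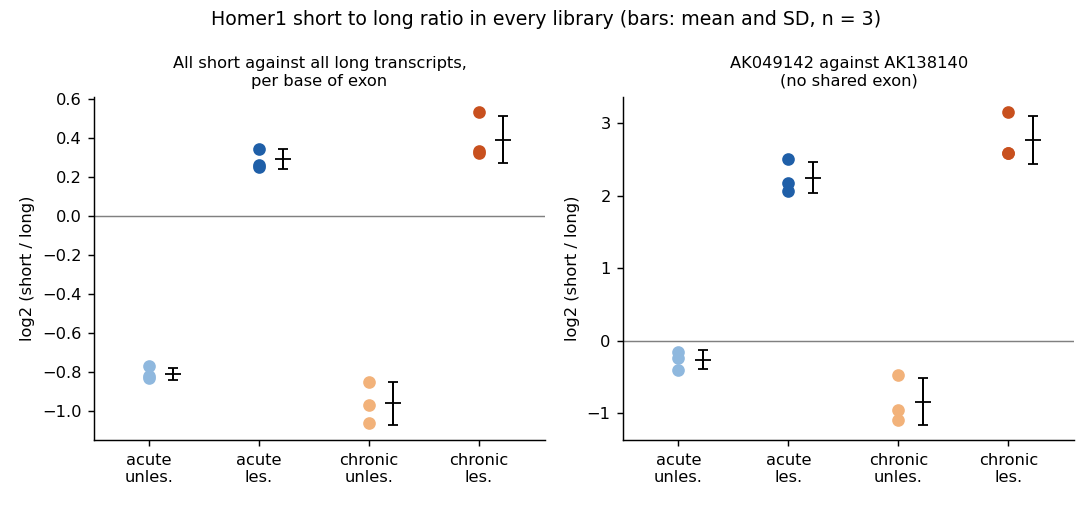
Log2 ratio of short to long Homer1 (y axis) in each library by group (x axis), from all transcripts (left) and from a pair of transcripts without a shared exon (right). Points are libraries and bars are the mean and SD of 3; lesioned and unlesioned libraries do not overlap in either panel.

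The upstream letters of Homer1 are shown for the same reason as those of Npas4. In RefSeq (GRCm38.p6) the 76 bases from position -76 to -1 before the first start, chr13:93303681-93303756 on the plus strand, hold 3 cores TGACG, in capitals, all on the strand of the gene.

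Homer1 promoter: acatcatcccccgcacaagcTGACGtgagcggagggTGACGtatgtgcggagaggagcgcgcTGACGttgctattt

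Of all windows 1.03% held 3 or more cores on either strand. The other window of Homer1, both windows of Homer2 and that of Homer3 held none of the 5 motifs searched.

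Homer2 and Homer3, the paralogues of Homer1, were low. Homer2 (AK158673, mm9, chr7:88754616-88852413, minus strand) lay between 0.726 and 1.17 CPM in all 12 libraries, and its groups overlapped in each comparison. Homer3 (NM_001146153, mm9, chr8:72806898-72818260, plus strand) lay between 3.40 and 4.44 CPM. The chronic lesioned libraries of Homer3, at 4.32, 4.44 and 4.39 CPM, lay above the unlesioned ones, at 3.40, 4.19 and 3.53 CPM, but the log2 difference of 0.24 ± 0.10 did not pass the test (edgeR, adjusted p = 0.163). None of the 6 Homer2 and 10 Homer3 transcripts was called in any of the 5 comparisons. Homer3 overlaps Ddx49 and Homer2 overlaps a transcript on the opposite strand. Since strand-specific counting is not stated, reads of these partners cannot be told apart.

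The pentraxins differed from Arc and Npas4 in when they were high. Nptx2 (NM_016789, mm9, chr5:145306756-145318347, plus strand) stood at 8.60, 7.55 and 9.08 CPM in the acute unlesioned and at 16.4, 12.5 and 14.3 CPM in the acute lesioned libraries. After chronic treatment it stood at 10.0, 7.60 and 9.68 CPM in the unlesioned and at 43.1, 47.4 and 44.1 CPM in the lesioned libraries. The unlesioned groups overlapped each other, the acute lesioned libraries lay above both, and the chronic lesioned libraries lay above all others. The lesion difference was 0.79 ± 0.10 on the log2 scale after acute (edgeR, adjusted p = 0.000290) and 2.30 ± 0.11 after chronic L-DOPA (edgeR, adjusted p = 3.65e-07).

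Nptx1 (NM_008730, mm9, chr11:119400033-119409134, minus strand) stood at 18.3, 13.0 and 12.4 CPM in the acute unlesioned and at 25.9, 16.2 and 18.0 CPM in the acute lesioned libraries, which overlapped. The difference of 0.46 ± 0.17 did not pass the test (edgeR, adjusted p = 0.0966). With the replicate number as a block, where each lesioned library is set against its own number, it passed with the same size (edgeR, adjusted p = 9.95e-05), as it did without acute unlesioned library 1 (0.66; edgeR, adjusted p = 0.0339) and without the filter on low counts (0.45; edgeR, adjusted p = 0.0453). It did not pass under the other 10 alternatives, was down to 0.23 without acute lesioned library 1, and had an adjusted p of up to 0.363 (DESeq2). After chronic treatment Nptx1 stood at 18.5, 7.65 and 21.4 CPM in the unlesioned and at 124, 117 and 132 CPM in the lesioned libraries, a 7.85-fold difference (log2 2.97 ± 0.30; edgeR, adjusted p = 0.000102). The chronic lesioned libraries lay far above the others, while the other 3 groups overlapped one another. The lowest Nptx1 and Nptx2 levels of the chronic unlesioned group were in library 2, the one with Ttr, and without it the chronic lesion differences were 2.64 and 2.19 on the log2 scale.

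Within the groups with low Nptx1 its level moved with most cortical markers. Slc17a7 stood at 23.3, 10.6 and 10.1 CPM in the acute unlesioned, 12.2, 1.64 and 1.25 CPM in the acute lesioned, and 18.2, 3.98 and 32.6 CPM in the chronic unlesioned libraries, and in each of these groups the library with the most Slc17a7 had the most Nptx1. The same held in all 3 groups for 8 of the 10 cortical markers, but not for Cux2 and Nrgn, a pattern noticed after the values were seen. In the chronic lesioned libraries Slc17a7 was 17.8, 1.34 and 1.28 CPM while Nptx1 was high in all 3. Over the 10 cortical markers the summed level ran from 290 to 349 CPM in acute unlesioned, 281 to 306 CPM in acute lesioned, 256 to 266 CPM in chronic unlesioned and 222 to 335 CPM in chronic lesioned libraries. None of the 10 was at 0 in any library and most of the sum was Nrgn, which the striatum also expresses. With the lesion 1 of the 10 was higher and 1 lower after acute L-DOPA, and none of the 9 tested passed after chronic L-DOPA. Their part in the acute Nptx1 difference was not tested.

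The rows labelled Nptxr need care. The transcript with the most counts, ENSMUST00000109627 (mm9, chr15:79654326-79665118, minus strand), carries the symbol Nptxr in the table but lies in the neighbouring gene Cbx6 of the reference annotation, as do 5 of the 9 rows. It fell by 0.24 ± 0.06 on the log2 scale with the lesion after acute L-DOPA (edgeR, adjusted p = 0.0244), a call that was lost without acute unlesioned library 2 or 3 or acute lesioned library 1 or 2 (edgeR, adjusted p from 0.0541 to 0.0769) and in the fit over all 12 libraries (edgeR, adjusted p = 0.0662). Of the rows inside Nptxr, AK147546 (mm9, chr15:79616783-79635196) stood at 29.7, 26.1 and 32.2 CPM in the acute unlesioned and at 26.4, 24.1 and 25.2 CPM in the acute lesioned libraries. Following chronic treatment, the levels were 36.2, 28.9 and 40.9 CPM in the unlesioned and 32.3, 26.5 and 26.3 CPM in the lesioned libraries. The groups overlapped in both treatments. The lesion differences were -0.21 ± 0.08 (edgeR, adjusted p = 0.0876) and -0.32 ± 0.13 (edgeR, adjusted p = 0.151), and both passed when the replicate number was entered as a block, at -0.21 (edgeR, adjusted p = 0.0175) and -0.31 (edgeR, adjusted p = 0.0311). They also passed without acute unlesioned library 2 (edgeR, adjusted p = 0.0392) and without chronic unlesioned library 2 (edgeR, adjusted p = 0.0276). Described by AK147546, 4 genes were called after acute L-DOPA in place of 5.

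**Figure D4:**
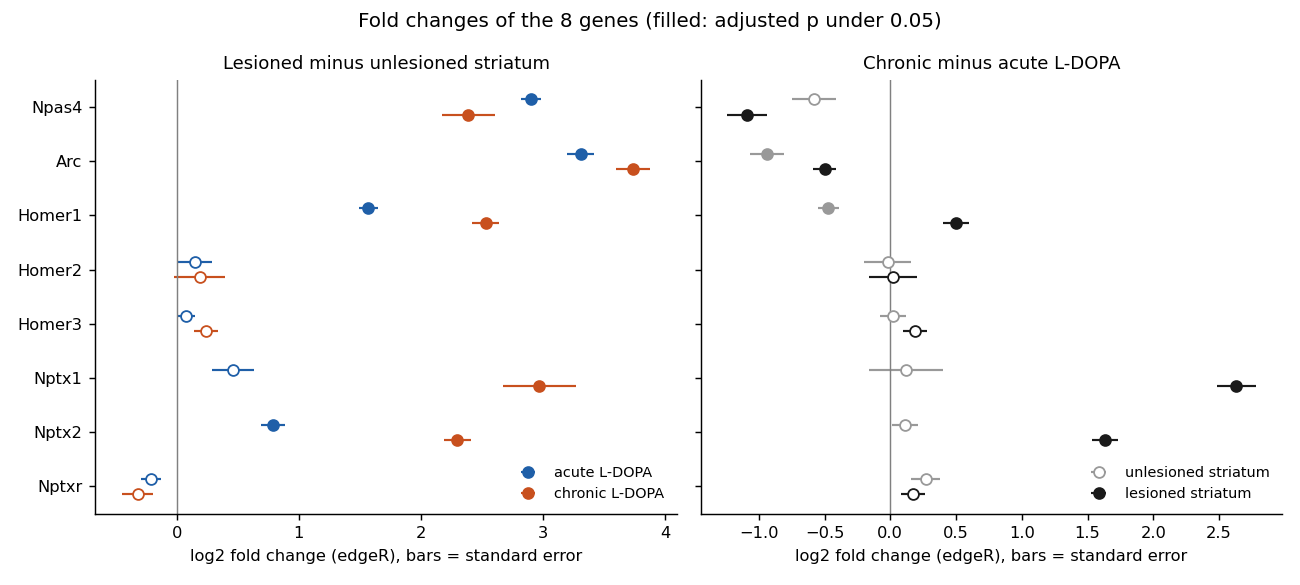
Log2 fold changes (x axis) of the 8 genes (y axis) between lesioned and unlesioned striatum (left) and between chronic and acute L-DOPA (right), with Nptxr by AK147546. Bars are standard errors and filled points passed an adjusted p under 0.05; in the lesioned striatum Npas4 and Arc lie left of 0 and Homer1, Nptx1 and Nptx2 right of it.

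The next comparison asks how the lesioned striatum after 9 days of L-DOPA differed from that after a single dose. The genes parted: Npas4 and Arc were lower after chronic treatment, while Nptx1, Nptx2 and Homer1 were higher. The Cbx6-located row labelled Nptxr was also called higher. In this comparison 23.3% of all 127463 transcripts were called, 51.9% of them higher. Npas4 was 2.13-fold lower (log2 -1.09 ± 0.15; edgeR, adjusted p = 0.000648) and Arc was 1.42-fold lower (log2 -0.50 ± 0.09; edgeR, adjusted p = 0.00368). Nptx1 was 6.20-fold higher (log2 2.63 ± 0.15), Nptx2 3.10-fold (log2 1.63 ± 0.10) and the short Homer1 transcript 1.42-fold (log2 0.50 ± 0.10; edgeR, adjusted p = 0.00630). For each of these 5 genes the chronic and the acute lesioned libraries did not overlap. This describes the same values as the calls and adds no support to them. The share of all transcripts without overlap was not computed.

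Of the 20 Homer1 transcripts 18 were higher in the chronic than in the acute lesioned striatum. The short tail AK049142 was higher by 0.49 ± 0.10 (edgeR, adjusted p = 0.00682). The long NM_152134, on which reads of exons shared with the short form also count, was higher by 0.29 ± 0.07 (edgeR, adjusted p = 0.0156). The rows in the 3′ exons of the long forms did not pass. The Nptxr-labelled row of Cbx6 rose by 0.27 ± 0.08 (edgeR, adjusted p = 0.0406). That call was lost on leaving out any of the 3 acute lesioned libraries, or chronic lesioned library 1 or 3 (edgeR, adjusted p from 0.0812 to 0.129), and with sums over transcripts (edgeR, adjusted p = 0.0622). AK147546, inside Nptxr, did not pass (0.17 ± 0.09; edgeR, adjusted p = 0.204).

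Markers of cell types also moved between these groups. All 6 oligodendrocyte markers were lower after chronic treatment, their summed level running from 2114 to 3496 CPM in the acute and from 1162 to 2099 CPM in the chronic lesioned libraries, and 4 of 5 D1 markers were higher, from 132 to 144 CPM against 295 to 344 CPM. Pdyn, whose mean went from 18.1 to 184 CPM, made up most of the D1 sum in the chronic lesioned libraries, and Tac1, at a mean of 94.0 and 89.2 CPM, most of it in the acute ones. Also lower were 3 of 5 D2 markers (median log2 difference of the list -0.46), 4 of 6 microglia markers (-0.47) and 3 of 6 astrocyte markers (-0.30). Of the cortical markers 2 of the 9 tested were lower (Rorb and Fezf2), 2 of the 4 choroid plexus markers tested were higher (median 1.42), 1 endothelial marker was higher and 1 lower, 1 marker of all medium spiny neurons was higher (Pde10a), and so was 1 of the 2 markers of dopamine axons tested (Th). Of all these markers, Kcne2 of the choroid plexus list alone was at 0 in any library. Their part in the differences of the 8 genes was not tested.

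In the unlesioned striatum the same comparison called 2.61% of all 129187 transcripts. That number, 3370, rested on single libraries: it was 14377 without chronic unlesioned library 2 and between 66 and 775 without any other. Of the markers of cell types, Drd2 of the D2 list, Tmem119 of microglia and Aqp4 of astrocytes were lower, and Cux2 of cortical neurons, Slco1a4 of endothelium and Clic6 of choroid plexus were higher, 1 of each list. Their part in the differences of the 8 genes was not tested. Arc was 1.91-fold lower after chronic treatment (log2 -0.94 ± 0.13; edgeR, adjusted p = 0.0116) and the short Homer1 transcript 1.38-fold lower (log2 -0.47 ± 0.08; edgeR, adjusted p = 0.0179), with no overlap of the libraries. These were the 2 genes called. In AK049142 the short tail was 1.79-fold lower (log2 -0.84 ± 0.12; edgeR, adjusted p = 0.0116), a call that was lost without acute unlesioned library 1 or 2 or chronic unlesioned library 3 (edgeR, adjusted p from 0.0518 to 0.0774). Npas4 had the same direction and no overlap, but its log2 difference of -0.58 ± 0.17 missed the threshold (edgeR, adjusted p = 0.0843). It passed with DESeq2 (-0.57; adjusted p = 0.0146) and without the filter on low counts (-0.59; edgeR, adjusted p = 0.0423). Nptx1 and Nptx2 differed by 0.12 ± 0.28 and 0.11 ± 0.10, with overlapping libraries. The Arc call was lost without acute unlesioned library 1 (-0.82; edgeR, adjusted p = 0.0803) or 2 (-0.98; edgeR, adjusted p = 0.0678). The Homer1 call was lost without any of the 3 acute unlesioned libraries or chronic unlesioned library 1 or 3 (edgeR, adjusted p from 0.0536 to 0.107), and with sums over transcripts (-0.21; edgeR, adjusted p = 0.131). Npas4 was called without chronic unlesioned library 2 (-0.64; edgeR, adjusted p = 0.0372), the library with choroid plexus RNA, and Arc and Homer1 stayed called there, which made 3 genes. AK147546, inside Nptxr, did not pass with all libraries (0.27 ± 0.11; edgeR, adjusted p = 0.205) and was called higher without that library (0.39; edgeR, adjusted p = 0.0149).

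Whether the lesion effect itself differed between the treatments was tested as an interaction over all 12 libraries. The effect was larger after chronic L-DOPA for Nptx1 by 2.51 ± 0.39 on the log2 scale (edgeR, adjusted p = 0.00138), for Nptx2 by 1.52 ± 0.16 (edgeR, adjusted p = 4.00e-05) and for the short Homer1 transcript by 0.97 ± 0.14 (edgeR, adjusted p = 0.000689). These were 3 of the 8 genes, where 4.52% of all 130867 transcripts were called. The short tail AK049142 differed by 1.34 ± 0.17 (edgeR, adjusted p = 0.000315). For Homer1 a lower level on the unlesioned side and a higher level on the lesioned side both entered this difference. The lesion effect on Arc differed by 0.43 ± 0.17 (edgeR, adjusted p = 0.191), which passed with the replicate number as a block (0.45; edgeR, adjusted p = 0.0398) and without chronic unlesioned library 2 (0.61; edgeR, adjusted p = 0.0296). That on Npas4 differed by -0.51 ± 0.25 (edgeR, adjusted p = 0.296), and a difference in its lesion effect was not detected.

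Genes whose levels most resembled those of the members were found by Pearson's r of log2 CPM over the 12 libraries, among 12783 genes with a mean of at least 1 CPM. These r values describe libraries that share groups, and they carry no test. For Arc the 5 nearest were Fos (r = 0.996), Egr2 (0.995), Egr4 (0.994), Nr4a1 (0.994) and Fosb (0.993), all of them genes for inducible transcription factors. Fos went from 7.14 to 149 CPM with the lesion after acute and from 3.74 to 91.6 CPM after chronic L-DOPA. For Npas4 they were Egr1 (0.990), Atf3 (0.987), Nfil3 (0.984), Mcl1 (0.982) and Ppp2ca (0.981). For Homer1 the nearest was Nr4a3 (0.993), whose mean rose from 79.9 CPM in the acute to 119 CPM in the chronic lesioned striatum. It was followed by Tpt1p and 2 transcripts without a gene symbol on chromosome 6, which may share reads, and by Pabpc1 (0.987). For Nptx2 those described here were Hey1 (0.991), Stk40 (0.989), Pim1 (0.987) and Rara (0.985). Among the members r was 0.97 between Arc and Npas4 and between Nptx1 and Nptx2, and 0.41 between Npas4 and Nptx1.

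Among genes for proteins that Homer binds, Shank1, Shank2, Shank3, Grm5 and Itpr1 were examined, and none of these 5 was called higher on the lesioned side in either treatment. Grm5, the metabotropic glutamate receptor 5, fell by 0.43 ± 0.06 (edgeR, adjusted p = 0.000749) after acute L-DOPA. After chronic L-DOPA Grm5 differed by -0.41 ± 0.13 and missed the threshold (edgeR, adjusted p = 0.0665). Itpr1, the inositol trisphosphate receptor, fell by 0.70 ± 0.11 on the lesioned side after chronic L-DOPA (edgeR, adjusted p = 0.00285) and did not pass after acute L-DOPA (0.05 ± 0.10). The lesion effect on Itpr1 differed between treatments by -0.74 ± 0.16 (edgeR, adjusted p = 0.0160). The median log2 difference of the 5 was 0.02 after acute and -0.05 after chronic L-DOPA.

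Among 9 partners of Arc and the pentraxins, 2 were higher and 2 lower after acute L-DOPA, and 1 was higher and 2 lower after chronic L-DOPA. The AMPA receptor subunit Gria2 fell by 0.24 ± 0.06 (edgeR, adjusted p = 0.0213) after acute and by 0.46 ± 0.11 (edgeR, adjusted p = 0.0215) after chronic L-DOPA. Gria3 fell by 0.56 ± 0.08 after chronic L-DOPA (edgeR, adjusted p = 0.00102), and its lesion effect differed between treatments by -0.42 ± 0.09 (edgeR, adjusted p = 0.0192). Gria1 and Gria4 did not pass in either treatment. Adam17, a protease that cleaves the membrane-bound pentraxin Nptxr, rose by 0.42 ± 0.08 (edgeR, adjusted p = 0.00587) and Dnm2, a dynamin of endocytosis that Arc binds, by 0.25 ± 0.06 (edgeR, adjusted p = 0.0187) after acute L-DOPA, and neither passed after chronic L-DOPA. Ap2m1, a subunit of the clathrin adaptor, fell by 0.22 ± 0.06 after acute L-DOPA (edgeR, adjusted p = 0.0363). Camk2b, a kinase that binds Arc, rose by 0.37 ± 0.09 after chronic L-DOPA (edgeR, adjusted p = 0.0248), and Sh3gl3, an endophilin, passed in neither treatment. Of the partners of Npas4, Arnt2 rose by 0.49 ± 0.11 after chronic L-DOPA (edgeR, adjusted p = 0.0135) and Arnt did not pass in either.

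Of 8 other activity-induced effectors, 6 were higher and 1 lower on the lesioned side after acute L-DOPA, with a median log2 difference of 0.68, and 5 were higher after chronic L-DOPA, with a median of 1.04. Ptgs2, the inducible cyclooxygenase, stood at 0.570, 2.38 and 0.502 CPM in the acute unlesioned, 4.21, 8.34 and 4.60 CPM in the acute lesioned, 0.746, 0.351 and 0.860 CPM in the chronic unlesioned and 20.4, 15.0 and 19.3 CPM in the chronic lesioned libraries. Scg2, a precursor of secreted peptides, rose by 0.74 ± 0.07 (edgeR, adjusted p = 1.71e-05) after acute and by 1.80 ± 0.12 (edgeR, adjusted p = 6.51e-06) after chronic L-DOPA. Rheb, an activator of mTOR, rose by 0.59 ± 0.06 and 1.14 ± 0.08 and Vgf, a secreted neuropeptide precursor, by 0.76 ± 0.09 and 1.29 ± 0.08. The lesion effect was larger after chronic L-DOPA for Ptgs2, Scg2, Rheb and Vgf, with interactions of 2.47 ± 0.64, 1.06 ± 0.15, 0.55 ± 0.09 and 0.54 ± 0.13. Plk2, a kinase, rose in both treatments, by 0.88 ± 0.08 and 0.93 ± 0.11, and its interaction was 0.05 ± 0.15 (edgeR, adjusted p = 0.889).

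Bdnf, the neurotrophin, was the one lower in the acute comparison, by 1.88 ± 0.56 (edgeR, adjusted p = 0.0458), with overlapping libraries at 0.0347 to 0.575 CPM. Across the acute libraries its highest level in each group was in library 1, as was that of Slc17a7, and the part of cortical RNA in the Bdnf difference was not tested. Nrn1, a membrane-anchored neurotrophic factor, passed in neither treatment, and Pcdh8, a protocadherin, rose by 0.62 ± 0.15 after acute L-DOPA (edgeR, adjusted p = 0.0174), with an interaction of -0.83 ± 0.30 that did not pass (edgeR, adjusted p = 0.140).

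**Figure D5:**
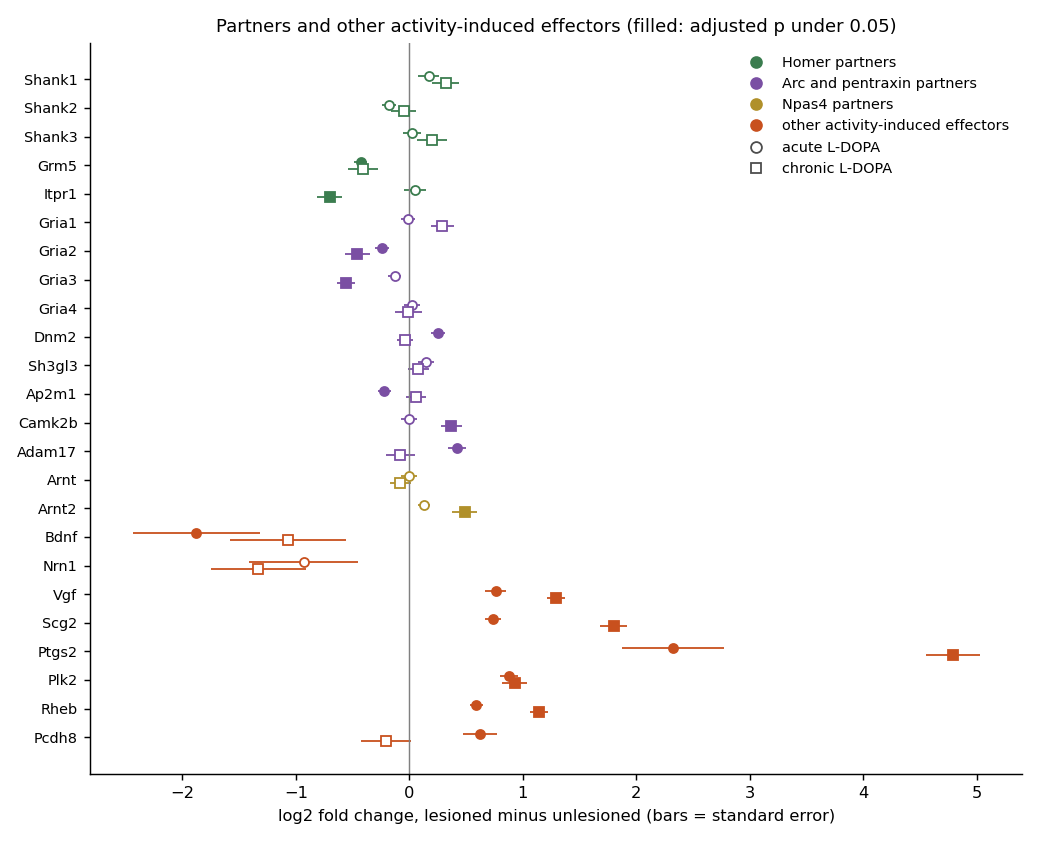
Log2 fold change of the lesion (x axis) for the 24 partner and effector genes (y axis), after acute (circles) and chronic (squares) L-DOPA, coloured by list. Bars are standard errors and filled symbols passed an adjusted p under 0.05; Vgf, Scg2, Ptgs2, Plk2 and Rheb lie right of 0 in both treatments, while no filled symbol of the Homer partners lies right of it.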

How the data were processed

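The authors used 0.5 µg of RNA for each TruSeq library, sequenced the libraries on a Genome Analyzer II, mapped the reads to mm9 with Genomatix software and deposited an unnormalized read count for each of 189660 Genomatix transcripts. Handling of strand and of reads with several positions is not given in the sources used here. A read adds to each transcript that it overlaps. A normalised expression signal, scaled by transcript length and library size, was also deposited by the authors and served here only to compare levels between genes. Their comparison tables (DESeq p-values and log2 fold changes) and 36 per-sample columns in them were not used. Of the 189660 transcripts, 296 name no gene, held 0.0485% of counts and were left out.

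The counts were tested with edgeR 4.0.16 (limma 3.58.1, R 4.3.3) through glmQLFit and glmQLFTest, after filterByExpr by group and with TMM normalization, on the 6 libraries of a comparison or, for the interaction, all 12, without a block. A transcript was called at a Benjamini-Hochberg adjusted p under 0.05 over all transcripts tested. CPM used the TMM-scaled library size; correlations used log2(CPM + 0.1). On simulated counts the fits recovered most changed transcripts with their direction, but the share of false calls was above the threshold of the adjusted p, more so with the block. Tables and figures used Python 3.11.15 with matplotlib 3.10.9, numpy 2.4.6 and pandas 2.3.3. DESeq2 1.42.0 and the other alternatives are given at the end.

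The named genes are the 8 members by their transcript with the highest mean count, each Homer1 transcript, the genes of 4 partner and effector lists, and for Arc, Npas4, Nptx2 and Homer1 the 5 genes with the highest correlation. A gene first written into one of these lists, and taken out of it, and one of the correlated genes are not reported here. Members and lists were chosen with earlier results of these data known. Lists of markers were written for cortical glutamatergic neurons, D1, D2 and all medium spiny neurons, oligodendrocytes, microglia, astrocytes, endothelium, choroid plexus and dopamine axons. Nptxr inside its own gene and the Homer1 ratio from a pair of transcripts without a shared exon were added after seeing the data.

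Same-numbered lesioned and unlesioned libraries deviated together from their group means. Across 15368 genes the correlation was 0.429, 0.399 and 0.279 after acute and 0.453, 0.523 and 0.131 after chronic L-DOPA. All were above the limit of 0.1. Libraries numbered 3 of the acute and the chronic treatment also passed that limit, at 0.123 (lesioned) and 0.118 (unlesioned). The replicate numbers thus appear to pair the sides, but pairing of the chronic libraries numbered 3 was not shown. The labels count 12 mice for 12 libraries, whereas the study describes each unlesioned side as a control within the animal. The p-values measure the spread between these libraries. No pair of libraries was a copy of another. Counting errors cover reads, which carry no molecular identifiers.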

Additional observations from a re-analysis of the deposited data

Results flagged for a closer look

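The lesion effect differed between acute and chronic L-DOPA for 3 of the 8 genes, by the interaction in edgeR with Benjamini-Hochberg adjustment. It was larger after chronic treatment by 2.51 on the log2 scale for Nptx1, by 1.52 for Nptx2 and by 0.97 for the Homer1 short form ENSMUST00000102752. In the tail of that short form, AK049142, it was larger by 1.34. Every chronic lesioned library was higher than every acute lesioned library in all 4 transcripts. These values also entered the interaction that picked the transcripts, and the share of all transcripts without overlap was not computed.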

How the results depend on the processing

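The calls of Arc, Npas4, Nptx2 and the short Homer1 transcript between lesioned and unlesioned striatum, and those of Nptx1 after chronic L-DOPA, kept their direction and stayed called under every alternative run: DESeq2, edgeR with DESeq2's size factors, no filter on low counts, 1 transcript per gene, sums over a gene's transcripts, a fit over all 12 libraries, the replicate block and each library left out. So did the chronic against acute differences of Arc, Npas4, Homer1, Nptx1 and Nptx2 in the lesioned striatum and the interactions of Homer1, Nptx1 and Nptx2. The lesion difference of Homer1 was lowest with sums over its short and long transcripts, at 0.67 in place of 1.57 after acute and 1.29 in place of 2.53 after chronic L-DOPA. The number of genes called in the unlesioned striatum was 1 in place of 2 with sums over transcripts, and 0 to 3 with single libraries left out.

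The replicate block changed the calls on Nptx1, AK147546, AK138140 and the Arc interaction given above, and, among the transcripts standing for the 8 genes and AK049142 and NM_147176, no other call between the sides. The calls on the other member transcripts were not compared between these fits. Between chronic and acute L-DOPA, where the libraries share only a number, the block value of the Npas4 difference in the unlesioned striatum was -0.59 (edgeR, adjusted p = 0.0369) and that of the Nptxr-labelled Cbx6 row in the lesioned striatum was 0.26 (edgeR, adjusted p = 0.0611). With the block 28240 transcripts were called in place of 16684 after acute and 27506 in place of 15295 after chronic L-DOPA, and 15876 in place of 5911 in the interaction. With single libraries left out the number over all transcripts fell as low as 9543 after acute and 9137 after chronic L-DOPA, 16025 of 29699 in the lesioned and 66 of 3370 in the unlesioned comparison, where it was 14377 without chronic unlesioned library 2, 6166 with DESeq2 and 5821 without the filter. The interaction ranged from 3794 to 9536 in this way. The fit over all 12 libraries called 22945 after chronic L-DOPA.

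Among the members, sign changes were confined to differences that were not called. With single libraries left out, the log2 difference of Homer2 ran from -0.13 to 0.19 (lesioned, chronic against acute), from -0.24 to 0.09 (unlesioned) and from -0.10 to 0.26 (interaction), and it was -0.11 with sums and -0.00 with the replicate block in the lesioned striatum. In the same way the Nptxr-labelled Cbx6 row ran from -0.05 to 0.09 with the lesion after chronic L-DOPA (-0.13 with sums, -0.00 without the filter) and from -0.03 to 0.07 in the unlesioned striatum. Between chronic and acute L-DOPA, AK138140 ran from -0.10 to 0.06 in the lesioned, Homer3 from -0.08 to 0.08 and Nptx1 from -0.16 to 0.44 in the unlesioned striatum, and the AK147546 interaction ran from -0.22 to 0.03. The causes were not tested. No detection limit was computed for low genes such as Homer2, which was at most 1.17 CPM.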
